A study of Mus musculus with 4 samples.

Results

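The comparison described here set primary mouse keratinocytes with 2.5 uM DAPT on day 7 against keratinocytes without it on day 7. It covered every gene that a named probe measured. DAPT is a small-molecule inhibitor of gamma-secretase. Of 16593 genes with a named probe, 9705 were read, those whose probe passed a detection p-value of 0.01 on at least 1 of the 2 day 7 arrays. The study hybridised 4 arrays, 1 for each of 4 groups, without and with DAPT on day 4 and on day 7. The cells were keratinocytes isolated from newborn mice of the 129 strain that carry a Pou5f1::GFP transgene, in which the regulatory sequence of a pluripotency gene drives a green fluorescent protein. All groups share that genotype, the transduction with reprogramming transcription factors that the series text describes without naming the factors, and growth in SFM medium at 30 degrees with 10% CO2. The sample titles set the groups, because the treatment entry names DAPT for every sample. The labels do not say whether animals were pooled. With 1 array a side there is no replicate error for any value below, so no difference was tested and sizes are given alone.

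Gamma-secretase is a membrane protease that cuts the intracellular domain of Notch receptors free, and that domain enters the nucleus and switches on target genes together with the DNA-binding protein Rbpj. In the epidermis Notch signalling acts as basal keratinocytes leave the cell cycle and begin to differentiate. The enzyme also cuts many other membrane proteins, among them cadherins and melanosome proteins. Interferons are secreted signals that switch on antiviral genes through Jak kinases, Stat proteins and interferon regulatory factors.

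Intensities below are the deposited probe brightness values, and each difference is log2 with DAPT minus log2 without it on day 7 after all 4 arrays were brought to the same distribution, so that a difference of 1 is a 2-fold higher level. Paired readings are given without DAPT first and with DAPT second, and the normalised log2 difference of day 7 stands in brackets after the day 7 pair, followed for some genes by that of day 4. The DAPT array was the brighter of the day 7 arrays, with a mean intensity of 416 against 323 and 13627 against 12281 of 25697 probes detected. On day 4 the DAPT array was the dimmer, at 365 against 472. A printed pair of intensities therefore leans toward DAPT on day 7 and away from it on day 4, and only the normalised differences correct for this. Where only 1 of the arrays detected a probe, the difference is a bound, taken against the higher of the other array's lowest detected signal and the probe's own, and is written with "at least".

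The cells were checked against marker genes. Of 9 keratinocyte markers 8 were detected on both day 7 arrays. Krt14, a keratin of basal keratinocytes, read 9554 without and 14082 with DAPT. Krt1, a keratin of the suprabasal layers, was not above background on either array, and Krt10, its partner, read 276 and 305. All 7 fibroblast markers were also detected on both day 7 arrays, with a summed intensity of 22406 without and 28468 with DAPT, against 16497 and 13099 on day 4. Acta2, the smooth muscle actin that contractile fibroblasts also make, read 36835 and 35406. Keratinocyte markers summed to 12504 and 18983 on day 7, and to 30204 and 33027 on day 4. These sums are not normalised and carry the gap in brightness. On the normalised scale the day 7 differences of the fibroblast markers ran from -0.23 (Col1a1) to 0.85 (Lum). Dcn, the brightest of them, differed by 0.09. Those of the detected keratinocyte markers ran from -0.37 (Krt10) to 1.70 (Krt5). The RNA thus held transcripts of mesenchymal genes beside keratinocyte genes, and in bulk RNA fewer cells of a type and less RNA per cell cannot be told apart. The part of any shift in cell types, and of the gap in brightness, in the differences below was not tested.

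Of the 9705 genes, 157 (1.62%) were higher by 2-fold or more with DAPT and 45 (0.464%) were lower by as much, 202 (2.08%) together. At a 1.5-fold limit, 699 genes (7.2%) were higher and 555 (5.72%) lower. The median difference of all genes was -0.05 and their SD 0.40, with the middle range running from -0.26 to 0.20. Of the genes tested, 8631 were detected on both arrays, 873 with DAPT only and 201 without DAPT only. The SD of the differences was 0.48 over the 2427 genes with the dimmest signal and 0.30 over the 2426 brightest. The day 7 differences of probes for 1 gene varied by an SD of 0.34, over 2033 genes with at least 2 probes detected on both arrays. That is a spread between probes and does not measure scatter between replicate cultures. Under median scaling in place of quantiles the median of all genes lay 0.22 higher, and the split was 348 higher and 16 lower. On the authors' normalised values it was 141 higher and 69 lower.

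**Figure D1:**
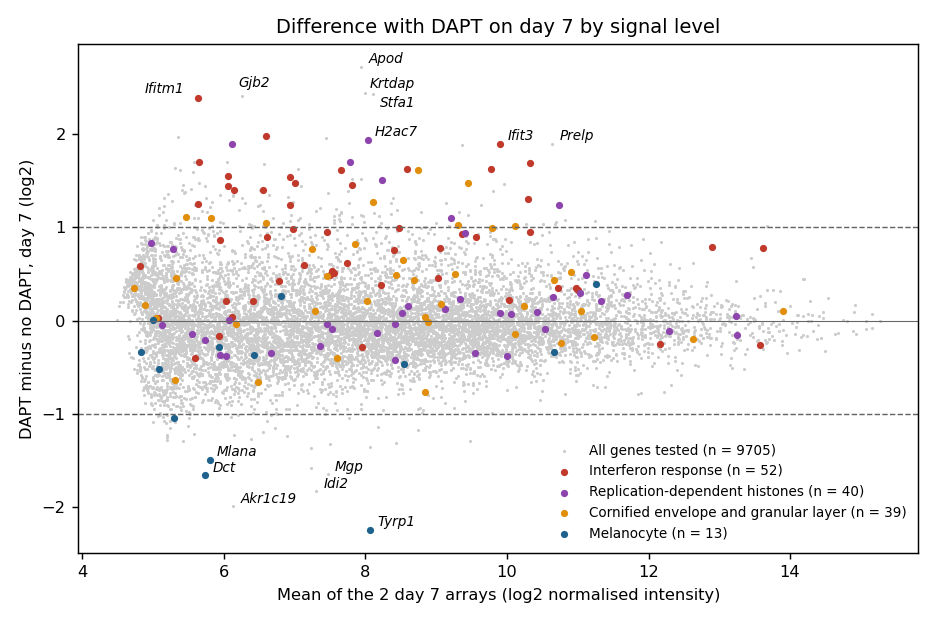
Each point is a gene of the day 7 comparison, with its mean log2 normalised intensity on the x axis and its log2 difference, DAPT minus no DAPT, on the y axis. Dashed lines mark 2-fold, coloured points are members of 4 gene lists, and of 52 interferon response genes 18 lie above the upper line and none below the lower one.

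The gene with the largest normalised difference was Apod, which encodes the lipid-binding protein apolipoprotein D. Its probe read 52.4 without and 649 with DAPT, a 6.56-fold normalised difference, and 61.5 and 27.0 on day 4 (-0.19), so the day 7 DAPT array stood alone. Ly6c1, a small surface protein gene, read 46.5 and 342 (1.95). Gjb2, which encodes the epidermal gap junction protein connexin 26, was detected on day 7 only with DAPT, at 166, and was at least 5.29-fold higher. Rhox9, an X-linked homeobox gene, read 77.9 with DAPT and was below background on the other 3 arrays, a difference of at least 1.97.

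Interferon response genes made up 18 of the 157 genes that were at least 2-fold higher. Of 64 on the array, 52 were detected, and 33 of these were at least 1.5-fold higher while none was 1.5-fold lower. Over all genes 1.62% were higher at 2-fold and 7.2% at 1.5-fold. Their median difference was 0.82, and 0.78 over the 46 detected on both arrays, against -0.05 for all genes. On day 4 the median of the 52 then detected was 0.23, with 0 members at least 2-fold higher and 1 lower.

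The promoters of 4 of these genes are printed because they hold the interferon-stimulated response element, the sequence to which Stat and interferon regulatory factor complexes bind. The sequences are RefSeq's for the mouse build GRCm38.p6, written 5′ to 3′ on the strand of the gene, with capitals for every place, on either strand, where GAAA is followed after 2 bases of any kind by GAAA. Overlapping matches run together.
Ifit3 (chr19:34583359-34583458, plus strand): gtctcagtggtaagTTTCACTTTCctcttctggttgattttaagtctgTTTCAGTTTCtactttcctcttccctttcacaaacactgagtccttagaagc
Isg15 (chr4:156200819-156200918, minus strand): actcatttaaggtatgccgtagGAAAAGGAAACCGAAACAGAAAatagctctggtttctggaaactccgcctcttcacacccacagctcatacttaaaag
Oas1g (chr5:120887614-120887713, minus strand): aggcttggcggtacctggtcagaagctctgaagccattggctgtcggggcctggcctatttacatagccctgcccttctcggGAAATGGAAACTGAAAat
Irgm2 (chr11:58214877-58214976, plus strand): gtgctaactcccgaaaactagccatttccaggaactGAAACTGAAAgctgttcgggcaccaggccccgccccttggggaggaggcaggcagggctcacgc

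Counting back from -1, the base before the annotated gene start, matches begin at -156 and -122 in Ifit3, at -78, -72 and -66 in Isg15, at -18 and -12 in Oas1g and at -64 in Irgm2. Over the whole RefSeq window of 250 bases before to 50 bases after the start, 21 of 40 interferon response genes with a promoter held a match, as did 7 of the 13 past 2-fold. Of all 27025 genes with a promoter 3.99% held one, and of those tested 3.63%. A match describes the letters in the window and is not a measured binding site.

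Ifit3, an inhibitor of viral RNA translation and assembly, read 484 and 492 on day 4 (without, then with DAPT) and 359 and 1962 on day 7. Its differences were 1.89 on day 7 and 0.67 on day 4, and on day 7 its 3 probes ran from 1.20 to 1.89. Oasl2, a relative of the enzymes that sense double-stranded RNA, read 582 and 618.4 on day 4 and 534 and 2430 on day 7 (1.69, day 4 0.72). For both genes 3 arrays were close together and the day 7 DAPT array was several times brighter. Oas1g, which makes the second messenger that activates RNase L, read 217 and 124 on day 4 and 79.6 and 372 on day 7 (1.45, day 4 0.02). Oas2, of the same family, was detected on day 7 only with DAPT, at 103, a difference of at least 1.54.

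Genes of the Irgm family of GTPases behaved unequally. Irgm2 read 139.7 without and 696 with DAPT (1.63) and Igtp, also known as Irgm3, 65.6 and 354 (1.61). Irgm1, of the same family, read 11811 and 11989 and differed by -0.26. Its 3 probes ran from -0.26 to 0.81.

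Ubiquitin-like modification was represented by the modifier and its enzymes. Isg15, the modifier itself, read 36.2 and 200.3 (1.54), after 205 and 90.1 on day 4 (-0.31). Ube2l6, which loads it onto targets, read 16.5 and 99.1 (1.44). Usp18, which removes it and also damps the type I interferon receptor, read 948 and 534 on day 4 and 362 and 1607 on day 7 (1.62, day 4 -0.25). The normalised day 4 differences of Isg15 and Usp18 were within 2-fold.

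Among sensors and regulators, Trim30a, a negative regulator of inflammatory signalling, read 21.5 and 184 (1.98), after 29.9 and 34.3 on day 4 (0.70). Dhx58, an RNA sensor of the RIG-I family, read 18.1 and 103 (1.40). Irf7, the regulatory factor that amplifies interferon production, read 27.1 and 143 (1.40). Irf9, the DNA-binding factor of the complex that recognises the response element, and Stat2, its partner, differed by 0.99 and 0.89. Ifitm1, a membrane protein that blocks virus entry, was detected on day 7 only with DAPT, at 109.6, and was at least 5.20-fold higher. Its abundant relative Ifitm3 read 8528 and 17949, a difference of 0.78. Rtp4, a receptor-transport protein induced by interferon, was likewise detected only with DAPT, at 64.0 (at least 1.24), and Lgals3bp, a secreted glycoprotein, read 604 and 2097 (1.30).

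Not every interferon response gene was higher. Ifit2, the neighbour and relative of Ifit3, read 182 and 218 and differed by -0.29. Oasl1 differed by -0.40, Ifi27 by -0.26 and Zbp1 by -0.17, and with Irgm1 and Ifit2 these were the 5 tested members below 0. Eif2ak2, the kinase that stops translation when it meets double-stranded RNA, and Irf1, a regulatory factor of the interferon gamma response, each differed by 0.34.

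Genes that make or receive interferon did not stand apart. Of 16 detected ligands, receptors and signalling genes none was 1.5-fold higher or lower, against 7.2% and 5.72% of all genes. Irf7, Irf9 and Stat2, given above and each at least 1.5-fold higher, were not in this list. Their median was -0.01. Socs1, an inhibitor of Jak kinases, was the highest of them, detected only with DAPT at 10.7 (at least 0.26). Ifngr2, a chain of the interferon gamma receptor, was the lowest at -0.54, reading 1265 and 1152.

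Antigen-presentation genes of class I had a median of 0.40 over 22 detected members, with 9 at least 1.5-fold higher (7.2% of all genes were) and none lower. Psme2, a subunit of the proteasome activator that interferon gamma induces, was the only one past 2-fold (1.62% of all genes were higher by as much). It read 14.4 without and 76.6 with DAPT (1.27). On day 4 it had differed by -1.86, and the list's median there was -0.30. Class II genes had 4 detected members and a median of -0.27, or 0.01 under median scaling, where the median of all genes was 0.17. Cfb, complement factor B, read 28.3 and 129 (1.24) among 5 detected complement genes.

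Chemokine genes divided. Of 37 cytokine and chemokine genes detected, 5 were at least 2-fold higher and none 2-fold lower, against 1.62% and 0.464% of all genes, with a median of -0.02. Ccl11, the eosinophil attractant eotaxin, read 217 and 214 on day 4 and 237 and 1323 on day 7 (1.88, day 4 0.72). Cxcl10 and Cxcl9, ligands of Cxcr3, a chemokine receptor on T cells, and also interferon targets, read 39.4 and 207 (1.47) and 41.1 and 179 (1.24). Ccl5, a T cell and monocyte attractant, was detected only with DAPT, at 78.7, at least 3.25-fold higher. Il34, a ligand of the macrophage growth factor receptor, read 41.7 and 186 (1.27). Ptgs2, the inducible prostaglandin synthase, was the lowest of the list at -0.99, reading 960 and 643. Of the immune cell markers Ptprc, Cd207 and Adgre1 were not above background on either day 7 array, while Cd3e read 36.6 and 29.0.

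**Figure D2:**
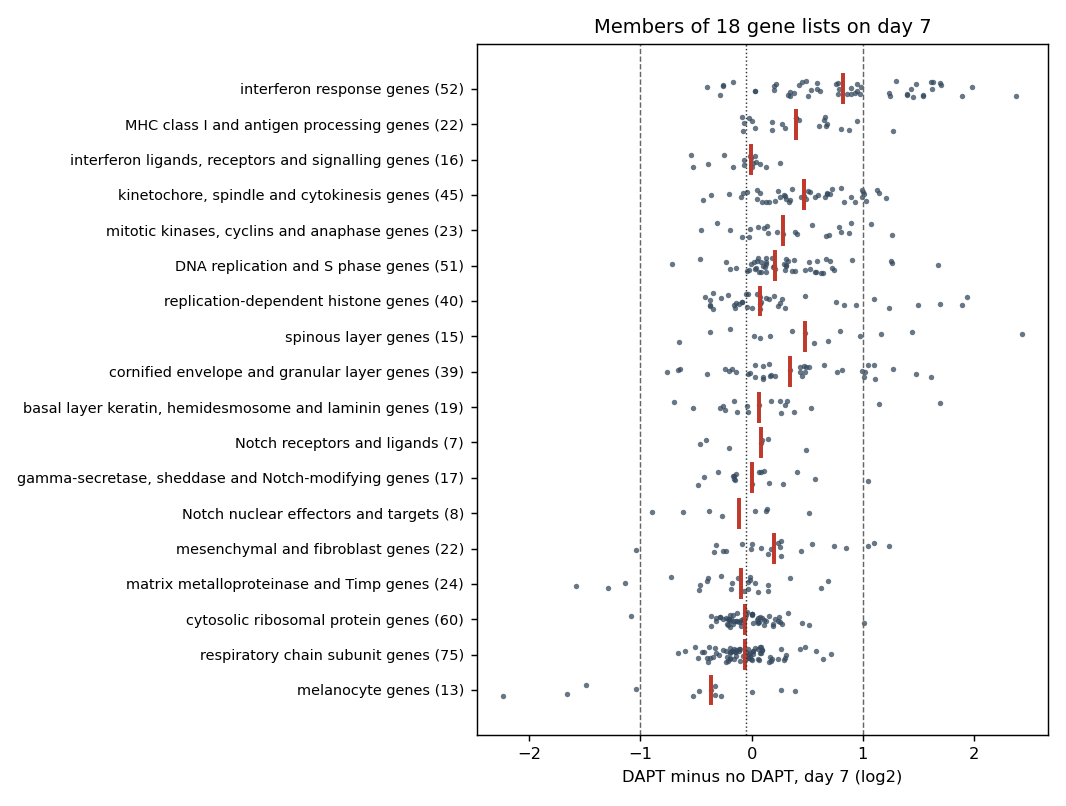
Each dot is a detected member of a gene list, placed by its log2 difference, DAPT minus no DAPT, on day 7, with the number of detected members in brackets. Red bars mark list medians, the dotted line the median of all genes at -0.05, and dashed lines 2-fold. The interferon response list has a median of 0.82 and the melanocyte list -0.37.

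Cell division genes were also higher with DAPT, by smaller sizes. Of 45 detected kinetochore, spindle and cytokinesis genes 5 were higher by 2-fold or more, 18 by 1.5-fold or more and none was 1.5-fold lower, with a median of 0.47, or 0.42 over those detected on both arrays. Mitotic kinases, cyclins and anaphase genes gave 2 of 23 at 2-fold, 8 at 1.5-fold and a median of 0.28. DNA replication and S phase genes gave 3 of 51 at 2-fold, 11 higher and 1 lower at 1.5-fold, and a median of 0.21. The shares over all genes were 1.62% higher at 2-fold, 7.2% higher at 1.5-fold and 5.72% lower at 1.5-fold. The day 4 medians of the same lists were 0.49, 0.34 and 0.29.

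The promoters of 2 mitotic genes and 2 histone genes are printed with 2 short elements marked. Capitals mark TTTGAA and CCAAT, the box bound by NF-Y, on either strand. TTTGAA is the core of the cell cycle genes homology region, an element of late cell cycle genes that DREAM and MuvB complexes bind.
Cdk1 (chr10:69352913-69353012, minus strand): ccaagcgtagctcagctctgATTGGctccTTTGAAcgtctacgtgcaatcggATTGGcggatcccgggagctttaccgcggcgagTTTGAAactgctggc
Cdc20 (chr4:118437344-118437443, minus strand): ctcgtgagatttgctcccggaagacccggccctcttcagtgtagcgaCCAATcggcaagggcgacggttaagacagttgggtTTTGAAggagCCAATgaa
H2ac7 (chr13:23574251-23574350, plus strand): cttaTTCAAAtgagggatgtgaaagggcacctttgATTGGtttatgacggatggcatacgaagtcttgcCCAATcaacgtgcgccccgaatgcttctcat
H2ac12 (chr13:22035644-22035743, minus strand): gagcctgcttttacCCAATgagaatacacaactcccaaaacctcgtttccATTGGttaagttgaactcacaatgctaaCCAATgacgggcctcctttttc

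TTTGAA begins at -71 and -15 in Cdk1, at -18 in Cdc20 and at -126 in H2ac7. In H2ac7 the match is on the other strand, and the printed stretch of H2ac12 holds none. A match to so short a sequence describes letters and is not a measured binding site. It occurred in 33 of 55 mitotic genes with a promoter in RefSeq and in 16 of 37 histone genes, against 14.6% of the genes tested and 20.2% of all genes with a promoter. CCAAT was in 35 of 55 mitotic genes and in 30 of 37 histone genes, against 43.2% of the genes tested and 41.1% of all genes. Of those past 2-fold it was in 3 of 7 mitotic genes and in 6 of 6 histone genes. The E2F site TTTCGCGC was in 8 of 37 histone genes and 6 of 44 S phase genes, and in 0.374% of all genes. TTTGGCGC, the other E2F form searched, was in 0 of 37 and 6 of 44, and in 0.585% of all genes.

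Cdk1, the kinase that drives entry into mitosis, read 813 and 400 on day 4 and 76.2 and 269 on day 7 (1.07, day 4 -0.40). Cdc20, the activator of the anaphase-promoting complex, read 545 and 481 on day 4 and 83.7 and 341 on day 7 (1.26, day 4 0.45). On both genes the day 7 array without DAPT was the dimmest of the 4. Nusap1, which bundles spindle microtubules, read 79.5 and 298 on day 7 (1.15). Birc5, the survivin subunit of the chromosomal passenger complex, read 43.2 and 174 (1.13). Cenpa, the histone variant that marks centromeres, read 2400 and 2542 on day 4 and 480 and 1359 on day 7 (1.99-fold, day 4 0.49). Cep55, which completes abscission, was detected on day 7 only with DAPT, at 73.7 (at least 1.21). Foxm1, the transcription factor of late cell cycle genes, read 50.8 and 62.7 and differed by -0.31.

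In the S phase list, Tk1, the thymidine kinase of dividing cells, read 245 and 211 on day 4 and 23.9 and 161 on day 7 (1.68, day 4 0.53). A second detected Tk1 probe differed by 0.31. Uhrf1, which carries DNA methylation through replication, read 135 and 513 (1.26) and Clspn, the checkpoint mediator claspin, 22.9 and 112 (1.25). E2f7, a repressor of E2F targets, was the lowest, detected without DAPT only at 18.6, with a bound of -0.72. The genes that stop the cycle gave a median of -0.19 over 14 detected, with Cdkn2a, the Ink4a and Arf locus, the lowest at -0.74.

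Replication-dependent histone genes split into a few high members and a middle near 0. Of 40 detected, 6 were at least 2-fold higher (1.62% of all genes were), none lower, and the median was 0.07. All 6 were H2A genes. H2ac7 read 773 and 500.0 on day 4 and 78.7 and 519 on day 7 (1.94, day 4 -0.02). H2ac12 read 667 and 384 on day 4 and 70.9 and 399 on day 7 (1.69, day 4 -0.14). H2ac11 read 13.8 and 123.2 on day 7 (1.89), H2ac15 113 and 512 (2.83-fold), H2ac24 860 and 2747 (1.24) and H2ac22 284 and 909.6 (1.10). H2A genes have nearly the same coding sequence, so their probes may share target transcripts and are not separate observations.

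The higher groups differed in where the day 7 arrays stood among all 4. On the normalised scale the day 7 DAPT array was the highest of the 4 for 18 of the 18 interferon response genes past 2-fold, against 72 of all 157 higher genes. For the 6 histone genes and the 10 mitotic and S phase genes past 2-fold it was the highest for 0, and the day 7 array without DAPT was the lowest for all of them. Over every tested member, that array was the lowest for 15 of 40 histone genes, 35 of 45 kinetochore, spindle and cytokinesis genes, 15 of 23 mitotic kinase, cyclin and anaphase genes and 36 of 51 S phase genes, against 2136 of all 9705 genes. The day 7 DAPT array was the lowest for 7 of the 40 histone genes and the highest for 5, and it was the highest for 41 of 52 interferon response genes, against 1773 of all genes. Of the 157 genes, the day 7 array without DAPT was the lowest for 109. Of the 18 interferon genes it was the lowest for 5. The counts for genes past 2-fold come from genes chosen on the day 7 difference, so some excess of both is built in, and all of them compare arrays of different days.

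**Figure D3:**
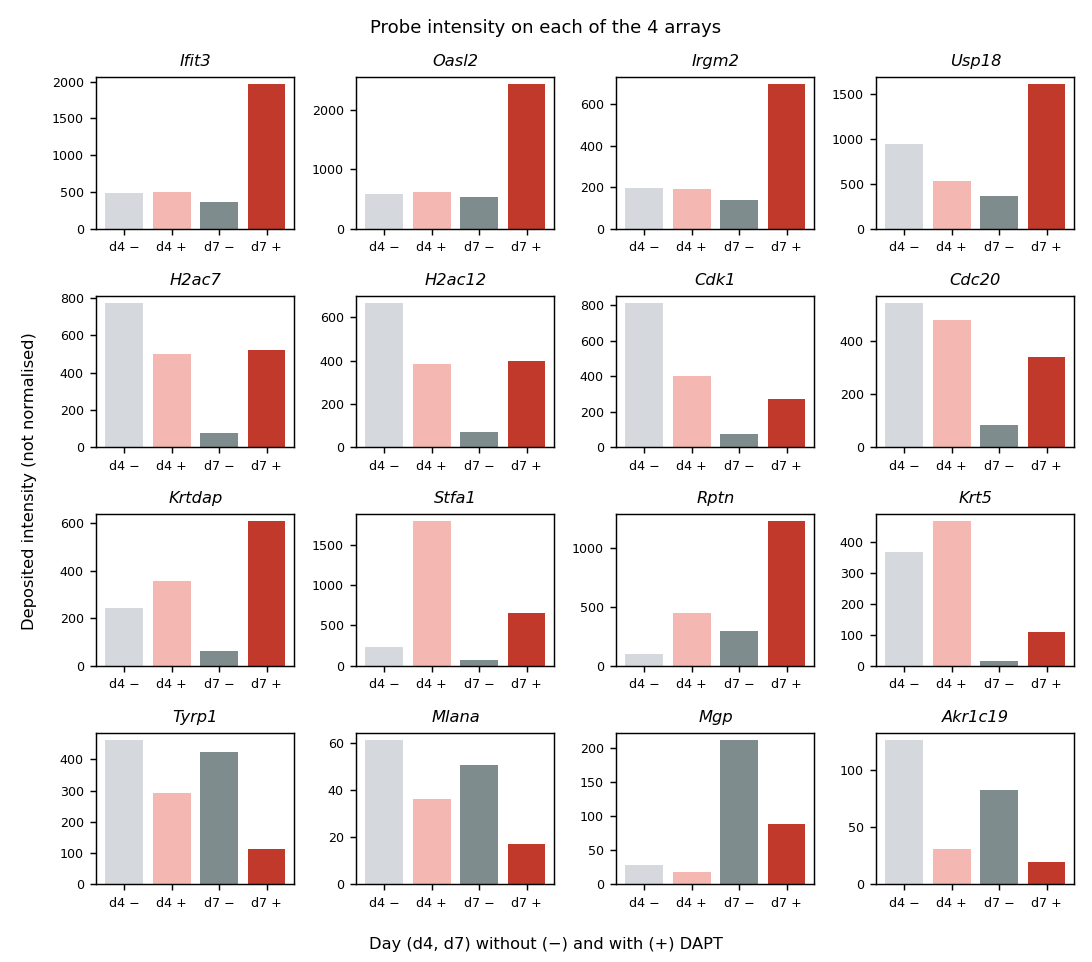
Bars show the deposited intensity, not normalised, of 1 probe per gene on each of the 4 arrays, day 4 (d4) and day 7 (d7) without and with DAPT, with axes that start at 0. The top row (interferon response) stands high on the day 7 DAPT array, the second row (histones and mitosis) stands low on the day 7 array without DAPT.

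Epidermal differentiation genes were higher in part. Among 39 detected genes of the cornified envelope and granular layer, 8 were past 2-fold upward and none downward, with 12 higher and 3 lower at 1.5-fold. Over all genes 1.62% and 0.464% passed 2-fold upward and downward, and 7.2% and 5.72% passed 1.5-fold, so the share lower at 1.5-fold was near the background. The median was 0.34, and 0.21 over the 33 detected on both arrays. On day 4 the same list had a median of 1.04 with 21 of 40 members at least 2-fold higher. Krtdap, a secreted protein of differentiating keratinocytes, read 244 and 358 on day 4 and 61.1 and 607 on day 7, a 5.41-fold normalised difference, with 1.23 on the log2 scale on day 4.

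Rptn, which encodes the envelope matrix protein repetin, read 103 and 447 on day 4 and 294 and 1222 on day 7 (1.48, day 4 2.66). Cnfn, cornifelin, read 159 and 775 on day 7 (1.61), and Sprr1b, a small proline-rich envelope protein, 111 and 432 (1.27). Lce3a, Lce3b and Lce3c, late cornified envelope genes, differed by 1.04, 1.01 and 1.02, and Lce1i was detected only with DAPT, at 71.1 (at least 1.10). The early envelope precursor involucrin went the other way. Ivl read 436 and 353 on day 7 and differed by -0.76, after -1.89 on day 4. Tgm5, a transglutaminase that crosslinks the envelope, differed by -0.66 and Casp14, the caspase of cornification, by -0.40.

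Stfa1, a stefin A protease inhibitor gene, read 239 and 1788 on day 4 and 68.3 and 653 on day 7 (2.42, day 4 3.47). It was brighter with DAPT on both days, and dimmer on day 7 than on day 4 in each treatment. Of 6 detected stefin A genes it alone was at least 2-fold higher. Their median was 0.20, or 0.05 over the 3 detected on both arrays and -0.06 on the authors' normalised values. The spinous layer genes Lgals7, a galectin of stratified epithelia, and Calml3, a calmodulin-like protein of epithelial cells, were detected on day 7 only with DAPT, at 58.4 and 69.9 (at least 1.45 and 1.16). Klk7 and Klk6, serine proteases of the kallikrein family to which the enzymes that shed the skin surface belong, read 438 and 1727 (1.46) and 78.2 and 349 (1.38). Of 16 detected kallikreins and other epidermal proteases 2 were at least 2-fold higher and 1 was at least 1.5-fold lower. The median of the 16 was 0.39. Defb4, an antimicrobial beta-defensin, was detected on day 7 only with DAPT, at 72.6 (at least 1.48). Of 15 detected antimicrobial peptide genes 1 was 2-fold higher and 1 was 2-fold lower, with a median of 0.21. Over all genes 1.62% were 2-fold higher, 0.464% 2-fold lower and 5.72% 1.5-fold lower. Wfdc18, of a family of whey acidic protein domain genes, read 341 and 607 on day 4 but 192 and 103 on day 7 (-1.33, day 4 1.47).

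Basal layer genes had a median of 0.06 over 19 detected, and 2 were at least 2-fold higher (1.62% of all genes were). Krt5, the partner of Krt14, read 369 and 466 on day 4 and 14.3 and 108 on day 7 (1.70). Col17a1, a hemidesmosome collagen, read 119 and 420 (1.15) on day 7. Krt14 differed by 0.26, Trp63, the master regulator of stratified epithelium, by 0.18, and Itgb1, the beta 1 integrin, by -0.69. Krt5 and Col17a1 were thus lower on both day 7 arrays than on day 4, and least so with DAPT.

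Notch pathway genes, downstream of the enzyme that DAPT inhibits, gave small differences on day 7. Of 8 detected nuclear effectors and targets none was past 2-fold, and 2 were at least 1.5-fold lower. Over all genes 2.08% were past 2-fold and 5.72% at least 1.5-fold lower, so none of 8 past 2-fold does not set the list apart. Nrarp, a Notch target that feeds back on the pathway, read 447 and 217 on day 4 and 230 and 171 on day 7, the lowest of the list at -0.90 (day 4 -0.30). Spen, a corepressor that binds Rbpj, differed by -0.62. Hes1, the repressor that Notch induces in many tissues, read 389 and 125 on day 4 and 124 and 202 on day 7 (0.12, day 4 -0.80). The list's median was -0.11, against -0.39 on day 4. Hey1, another Notch target, was detected only with DAPT, at 14.1, with a bound of 0.03. CGTGGGAA, the 1 form of the Rbpj site searched, was in 0 of the 5 genes of the list with a promoter in RefSeq and in 0.862% of all genes. With so rare a motif and so few genes, that count cannot tell the list from all genes. Other forms of the site were not searched.

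The 7 detected receptors and ligands had a median of 0.09, from Notch4 at -0.46 to Notch1 at 0.49. Of 17 detected genes for gamma-secretase, sheddases and Notch-modifying enzymes, Aph1a alone was past 2-fold (1.62% of all genes were 2-fold higher). It encodes a structural subunit of gamma-secretase and read 357 and 47.4 on day 4 and 41.2 and 155 on day 7 (1.05, day 4 -1.81). Of 21 detected genes for other gamma-secretase substrates 1 was 2-fold higher, Cdh2, N-cadherin, at 12.7 and 60.1 (1.10). Another 3 were 2-fold lower, which were the melanosome genes described next. Over all genes 1.62% were 2-fold higher and 0.464% lower. The median of the substrate list was 0.01.

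Melanocyte genes stood low with DAPT. Of 13 detected, 4 were at least 2-fold lower (0.464% of all genes were) and none 2-fold higher, with a median of -0.37, or -0.35 over the 8 detected on both arrays. On day 4 the median was 0.25. The promoters of Tyrp1 and Dct are printed with TCATGTG, the M-box that the melanocyte factor Mitf binds, in capitals on either strand.
Tyrp1 (chr4:80834113-80834212, plus strand): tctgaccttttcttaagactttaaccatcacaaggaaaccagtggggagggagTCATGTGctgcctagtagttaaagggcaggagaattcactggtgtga
Dct (chr14:118052387-118052486, minus strand): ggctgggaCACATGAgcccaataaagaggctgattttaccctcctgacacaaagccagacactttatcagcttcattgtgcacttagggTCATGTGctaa

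The M-box begins at -47 in Tyrp1 and at -232 and -151 in Dct. It was in 3 of 10 melanocyte genes with a promoter in RefSeq and in 4.31% of all genes. Tyrp1, an enzyme of melanin synthesis, read 462 and 293 on day 4 and 423 and 113 on day 7 (-2.24, day 4 0.04), with a second detected probe at -0.65. Mlana, a melanosome protein, read 50.7 and 17.2 (-1.49). Dct, another melanin enzyme, and Pmel, the protein of melanosome fibrils, were detected on day 7 only without DAPT, at 51.4 and 26.1, with bounds of -1.66 and -1.04. Tyr, the first enzyme of melanin synthesis, was not above background on any of the 4 arrays. Mitf was at the detection limit, read at 15.9 with DAPT only. Gpnmb, a melanosome glycoprotein that other cells also make, read 1744 and 2955 and differed by 0.39. Summed over 6 melanocyte markers, of which Tyrp1 is the brightest, the intensity was 564 without and 170 with DAPT, which restates the values of these genes.

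Of 24 detected matrix metalloproteinase and inhibitor genes 3 were at least 2-fold lower and none 2-fold higher, and at 1.5-fold 4 were lower and 2 higher, against 0.464% of all genes lower at 2-fold and 5.72% at 1.5-fold. Mmp10, stromelysin 2, read 359 and 129 on day 4 and 171 and 75.1 on day 7 (-1.58, day 4 -0.64). Mmp13, a collagenase, read 874 and 410 on day 4 and 861 and 462 on day 7 (-1.29, day 4 -0.48), but its second detected probe differed by -0.03. Mmp9, a gelatinase, read 302 and 186 on day 7 (-1.14, day 4 -0.73). The median of the list was -0.10, near that of all genes at -0.05. Under median scaling it was 0.13, where that of all genes was 0.17. Adamts8 was the highest, detected only with DAPT (at least 0.68).

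Matrix and mesenchymal genes went in both directions. Prelp, a small leucine-rich proteoglycan, read 116 and 172 on day 4 and 624 and 3197 on day 7 (1.90, day 4 1.25). Mgp, the matrix Gla protein that inhibits calcification, read 29.0 and 17.9 on day 4 and 212 and 88.3 on day 7 (-1.65, day 4 0.06). Both were brighter on day 7 than on day 4 in each treatment, and their day 7 differences had opposite signs. S100a4, a calcium-binding protein of motile fibroblasts, read 375 and 1282 (1.24), and Prrx1, a mesenchymal homeobox gene, 76.6 and 265 (1.04). Fap, a surface protease of activated fibroblasts, read 212 and 143 (-1.04). The 22 detected mesenchymal genes had a median of 0.20 and the 17 detected contractile genes -0.19.

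Single genes filled the rest of the low end. Akr1c19, an aldo-keto reductase, read 127 and 31.3 on day 4 and 82.7 and 19.3 on day 7 (-1.99, day 4 -0.87). Idi2, an isopentenyl diphosphate isomerase, read 1267 and 337 on day 4 and 201 and 72.9 on day 7 (-1.83, day 4 -1.30). Both were lower with DAPT on each day. Nox4, an oxidase that makes hydrogen peroxide, read 302 and 159.9 on day 7 (-1.35), Pla2g7, which inactivates platelet-activating factor, 157 and 81.6 (-1.37), and Wnt2, a Wnt ligand, 76.2 and 40.3 (-1.27). Rab27b, a GTPase of secretory vesicles, read 393 and 211 (-1.31), with a second detected probe at -0.01. Myog, the myogenic factor myogenin, was detected on day 7 only without DAPT, at 27.1 (at least 2.43-fold lower), and Bmerb1 read 33.1 and 10.7 (-1.29).

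The day 7 differences were set beside those of day 4, from the other pair of arrays. Of the 157 higher genes 152 were tested on day 4, where 19 were at least 2-fold higher, 47 at least 2-fold lower and 86 within 2-fold. Over all 9913 genes tested on day 4, 3.73% were higher and 3.55% lower. Of the 45 lower genes 41 were tested on day 4, where 2 were lower, 3 higher and 36 within 2-fold. No interferon response gene was among the 47. Their median intensity was 420 and 72.8 on day 4 and 38.8 and 155 on day 7, and on the normalised scale the day 7 array without DAPT was the lowest of the 4 for 40 of them.

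Named genes with opposite differences include the stress regulator Atf4, the transcription factor of the amino acid response, at 1242 and 188 on day 4 and 142 and 494 on day 7 (-2.04 and 1.14). Phgdh, the first enzyme of serine synthesis, was detected on day 7 only with DAPT, at 57.1 (at least 1.36), after -1.48 on day 4. Sesn2, a stress-induced inhibitor of growth signalling, was detected on day 7 only with DAPT, at 59.1 (at least 1.64), after -1.14. These 3 were the stress genes past 2-fold among 29 detected, against 1.62% of all genes higher by as much. The median of the 29 was -0.00. Bcl2l1, the survival factor Bcl-xL, read 86.2 and 417 on day 7 (1.51) after -0.73, but its 3 probes ran from 0.34 to 1.51. Plk3, a stress-responsive kinase, read 302 and 1008 (1.16) and Phlda3, a p53-induced inhibitor of Akt, 884 and 2454 (1.03). The 32 detected p53 target and apoptosis genes had a median of -0.15. Under median scaling it was 0.06, where the median of all genes was 0.17.

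**Figure D4:**
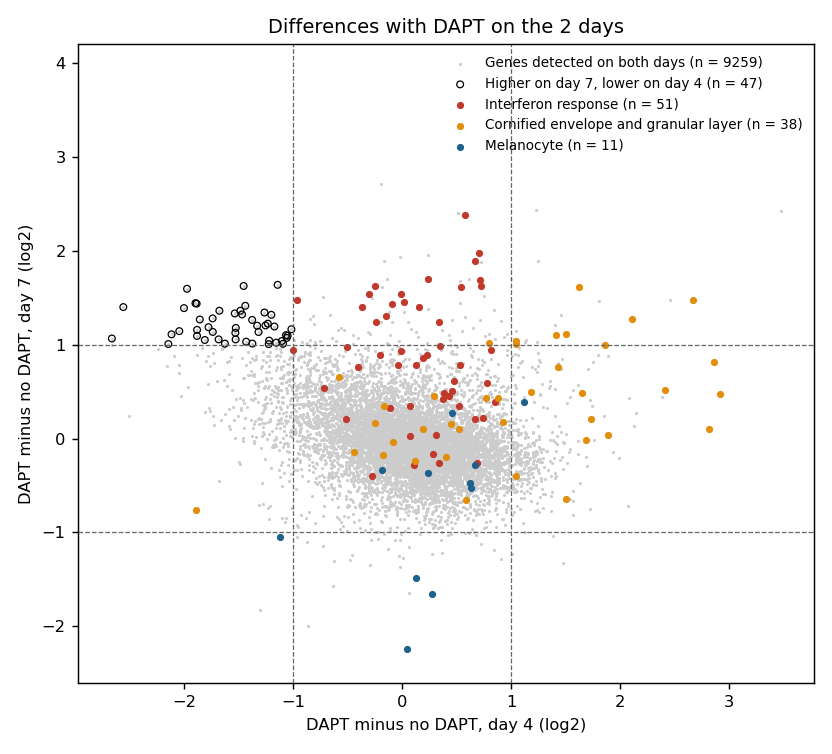
Each point is a gene detected on both days, with its log2 difference, DAPT minus no DAPT, on day 4 (x axis) and on day 7 (y axis). Dashed lines mark 2-fold. The open circles are the 47 genes higher on day 7 and lower on day 4, and the interferon response genes past 2-fold on day 7 lie within 2-fold on day 4.

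Genes of the reprogramming aim and of general metabolism gave few differences. Dppa5a, a gene of pluripotent cells, was detected on day 7 only with DAPT, at 74.4 (at least 3.25-fold). It was the 1 member past 2-fold of 18 detected pluripotency genes (1.62% of all genes were 2-fold higher). Pou5f1 was detected only with DAPT, at 13.6 (at least 0.33), and Sox2, its partner factor, without DAPT only, at 10.0. Both are near the lowest signal that passed detection. The 70 detected mitochondrial ribosomal genes, 75 respiratory chain genes, 34 proteasome genes and 52 translation factor genes held 0 members past 2-fold, against 2.08% of all genes. Their medians ran from -0.07 to 0.03, or from 0.05 to 0.23 under median scaling. Of 60 cytosolic ribosomal protein genes, Rps2 was higher (1.01) and Rpsa lower (-1.08, detected without DAPT only). The median of the 60 was -0.06, or 0.01 under median scaling. The median of all genes under median scaling was 0.17.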

How the data were processed

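Total RNA from the 4 cultures was labelled as biotinylated cRNA and hybridised to Illumina bead arrays. Per the file headers, the authors deposited a probe intensity and a detection p-value for each of 25697 probes and 4 arrays, exported before normalisation, and a second table of normalised intensity values, made by a method not stated in the files or labels. Per the submitters' processing notes BeadStudio was used, its version not given in the sources used here. Intensities were background-corrected with normexp on the detection p-values and quantile-normalised over the 4 arrays (neqc of limma 3.58.1 in R 4.3.3, offset 16). Each gene was represented by its brightest probe on average across all arrays, and genes with a detection p-value under 0.01 on at least 1 of the 2 day 7 arrays were kept. Of the probes, 23978 have 1 gene symbol in the platform annotation and 1719 none here, and 23962 matched a RefSeq gene by identifier. Differences are log2 values computed here from the deposited intensities. Each group is 1 array, so no test was run, and nothing says whether the cultures were independent. The number of arrays limits the precision.

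Named genes are the 15 highest and 15 lowest, members of 66 lists past 2-fold, the highest and lowest member of each list, and any detected member of 13 main lists. The members and lists were chosen with earlier results of these data known. Alternatives were median scaling, no further background correction, the day 7 arrays alone, an offset of 50, no detection filter, detection on both arrays, the mean over probes and the authors' normalised values. The counting step was tested on simulated data, with planted differences well past 2-fold and less scatter than the real differences. That checks the counting and gives no rate of false calls near 2-fold. Promoters are RefSeq's for GRCm38.p6, from 250 bases before to 50 after the start. Scripts used Python 3.11.15, numpy 2.4.6, pandas 2.3.3 and matplotlib 3.10.9.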

Additional observations from a re-analysis of the deposited data

Results flagged for a closer look

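11 named genes differed by at least 2-fold in opposite directions on the 2 days, and the difference between the days was not tested, since each day has 1 array a side. Higher with DAPT on day 7 and lower on day 4 were Psme2 (1.27 and -1.86), Aph1a (1.05 and -1.81), Cdh2 (1.10 and -1.07), Sesn2 (1.64 and -1.14), Pfkp (1.32 and -1.20), Atf4 (1.14 and -2.04), Phgdh (1.36 and -1.48), Rps2 (1.01 and -1.37), Ctsa (1.44 and -1.90) and Ezh2 (1.02 and -1.16), each as a log2 difference with DAPT on day 7 and then on day 4. The day 7 values of Sesn2, Phgdh, Ctsa and Ezh2 are bounds (at least), since those probes were detected only with DAPT, and the day 4 value of Ctsa is a bound too (at least as low). Probes disagreed on day 7 for Ctsa, from -0.24 to 1.44, and for Pfkp, from 0.03 to 1.32, and with the mean over probes these genes were at 0.56 and 0.67, within 2-fold. Ezh2 was within 2-fold under median scaling (0.88), with the day 7 arrays normalised alone (0.88) and on the authors' values (0.62), and Rps2 on the authors' values (0.96). With an offset of 50, Psme2, Aph1a, Cdh2, Sesn2, Pfkp, Phgdh, Ctsa and Ezh2 lay within 2-fold, from 0.50 to 0.91. Pfkp encodes a phosphofructokinase of glycolysis, Ctsa the lysosomal protective protein and Ezh2 the methyltransferase of Polycomb repression. Wfdc18 was lower on day 7 and higher on day 4 (-1.33 and 1.47). The array without DAPT was the brighter on day 4 and the dimmer on day 7, with mean intensities of 472 and 365 without and with DAPT on day 4 and of 323 and 416 on day 7. The part of that brightness in these differences was not tested.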

How the results depend on the processing

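The main counts were 157 genes at least 2-fold higher and 45 lower. Under median scaling they were 348 and 16, 364 in all, and under an offset of 50 they were 62 and 13, 75 in all. Detection on both arrays left 29 lower genes, and the authors' normalised values gave 69. The cause was not tested. The other counts lay within 1.5 times of the main ones. Of the 102 named genes past 2-fold, all kept their direction in every setting that measured them, which were 80 genes under detection on both arrays, and 58 stayed past 2-fold under the offset of 50, 95 under median scaling and 91 on the authors' values. Using the measured difference in place of the bound, a setting chosen after seeing the data, gave 166 higher and 48 lower. The interferon response median ran from 0.59 without a detection filter to 1.07 under median scaling, and the melanocyte median from -0.42 to -0.18. Medians that moved by over 1.5 times include those of mitotic kinases, cyclins and anaphase genes (0.15 on the authors' values and 0.17 with an offset of 50, against 0.28), kinetochore, spindle and cytokinesis genes (0.29 with an offset of 50, against 0.47), S phase genes (0.48 under median scaling, against 0.21), cornified envelope genes (0.17 without a filter, 0.18 with an offset of 50, 0.19 on the authors' values and 0.21 with detection on both arrays, against 0.34) and basal layer genes (from 0.05 to 0.34, against 0.06). Median scaling moved the median of all genes as well, from -0.05 to 0.17. With the median of all genes taken off, S phase genes were at 0.31 under median scaling, against 0.26 in the main setting. By the same measure basal layer genes were at 0.17 against 0.11. Interferon response genes were at 0.90 against 0.87 and melanocyte genes at -0.35 against -0.32. The median of the Notch nuclear effectors ran from -0.26 with detection on both arrays to 0.08 with the mean over probes, against -0.11. No paired analysis was possible because each group holds 1 array. Probes near background have only a bound on their difference.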

Other observations

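Of 827 detected probes with no gene name in the annotation used here, 22 were past 2-fold upward on day 7 and 6 downward. Over the genes with a name 1.62% were past 2-fold upward and 0.464% downward. The probe ILMN_1255416 read 1552 without and 6307 with DAPT, a log2 difference of 1.63. The probe ILMN_2744927 read 95.4 and 45.6 (-1.41).

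Xist, which female cells express, read 101 without and 130 with DAPT on day 7, and the Y-linked genes Eif2s3y, Kdm5d and Uty were also detected on both arrays. Eif2s3y read 908 and 983. The differences of these 4 genes ran from -0.57 to -0.24.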
